A study of Homo sapiens with 9 samples.

Results

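A set of 925 autosomal intervals had no listed transcript in any of the 3 libraries made with a scrambled hairpin (shScr) and was detected in all 3 libraries of at least 1 hairpin against CTDP1. An interval was a member when its value was 0 in all 3 shScr libraries and above 0 in all 3 libraries of shCTDP1-#1 or in all 3 of shCTDP1-#2. The 925 members were 1.83% of the 50571 autosomal intervals and 3.11% of the 29756 that were listed at 0 in all shScr libraries. Members were thus chosen by their TPM in all 9 libraries, and those values are given below as a description, without a test. A mirror set was drawn by the same rule turned round, with 0 in all 3 libraries of a hairpin and a value above 0 in all 3 shScr libraries. Selection on zeros fills both sets, so the counts of each are set side by side.

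CTDP1 encodes FCP1, the phosphatase that acts on the C-terminal repeats of the largest subunit of RNA polymerase II. In their phosphorylated form these repeats recruit elongation and RNA processing factors. Dephosphorylation by FCP1 returns the polymerase to a form that can start a new round of transcription, and the balance between both forms marks where a polymerase stands in the transcription cycle. Most intervals of a genome annotation hold no detectable transcript in a given cell line, and at low levels the step between a listed 0 and a value can be a single sequenced fragment.

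The libraries came from MDA-MB-231, a human triple-negative breast cancer line. They fall into 3 groups of 3 libraries: shCTDP1-#1 and shCTDP1-#2, each a lentiviral short hairpin RNA against CTDP1, and shScr, the scrambled control. All 9 were made from cells infected with virus produced in 293FT cells and selected with puromycin, with a kit that does not mark the strand of a transcript. Whether replicate libraries stem from different cultures is not stated, so the p-values reflect the variation among the libraries alone, possibly technical. In bulk RNA, fewer cells that express a transcript and less of it per cell cannot be told apart. The level of CTDP1 was not analysed here, because the files pair no interval with a gene name and the annotation at hand is of another genome build. The same limit holds for the defining markers of the cell line. Intervals are therefore named by their position on hg19, counted from 1, and their gene content is not given.

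Each value is in TPM, transcript abundance scaled to a fixed total per library, with 2 decimals. TPM keeps no read total, so the depth of the libraries is unknown and a listed 0 has no detection limit beside it. More autosomal intervals were listed above 0 in each hairpin library, with 20384, 20179 and 20726 for shCTDP1-#1, 20184, 19878 and 20370 for shCTDP1-#2, and 18491, 18137 and 18016 for shScr. The TPM that 1 read stood for was gauged, in intervals under 700 bases, from the most frequent ratio between low values of a pair of libraries. On the log2 scale, relative to shScr replicate 1, that ratio lay between 0.09 and 0.31 in the 6 hairpin libraries and at 0.08 and 0.19 in shScr replicates 2 and 3. It rests on 281 to 340 intervals per library, of which 62 to 101 lay within 0.1 of it. That it is the ratio of equal read numbers was assumed. On that assumption a read was worth no less TPM in any hairpin library than in shScr replicate 1. The ranges of the groups overlapped. The part of depth, fragment length and RNA quality in the membership was not tested.

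Many more intervals were detected with a CTDP1 hairpin and silent with shScr than the other way round. With shCTDP1-#1, 681 intervals were members, and the mirror set held 58, which is a ratio of 11.7. With shCTDP1-#2, 520 were members and 60 lay in the mirror set, a ratio of 8.67. As shares of all autosomal intervals these were 1.35% and 1.03% for the members and 0.115% and 0.119% for the mirror sets. Counted over either hairpin, 925 members stood beside 104 mirror intervals. The same rule applied between the hairpins gave 110 intervals at 0 in shCTDP1-#1 and detected in shCTDP1-#2, and 128 the other way round, so both directions were of similar size there.

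Members outnumbered mirror intervals for each hairpin at detection levels up to 2 TPM, although both counts became small. With at least 0.1 TPM in all 3 libraries of a group, 357 intervals were detected with shCTDP1-#1 and 299 with shCTDP1-#2, against 42 and 41 in the mirror sets. With at least 0.5 TPM the members were 70 and 64 and the mirror intervals 3 and 4. With at least 1 TPM the members were 15 and 21, and the mirror sets held 1 and 0. At 5 TPM no member through shCTDP1-#1 was left beside 1 mirror interval, and 1 member through shCTDP1-#2 was left beside none. The rule is strict in that 1 library can decide an interval. Asked of 2 libraries in place of 3, it gave 1042 and 1070 members with shCTDP1-#1 when its replicate 1 or 2 was left out, and 825 and 877 with shCTDP1-#2 when its replicate 1 or 2 was left out. The mirror counts grew as well, to between 98 and 146 for shCTDP1-#1 and between 104 and 133 for shCTDP1-#2, with any of the 6 libraries of the pair left out. The ratio of members to mirror intervals, over either hairpin, ran from 5.21 to 9.12 over the 9 libraries left out in turn.

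**Figure D1:**
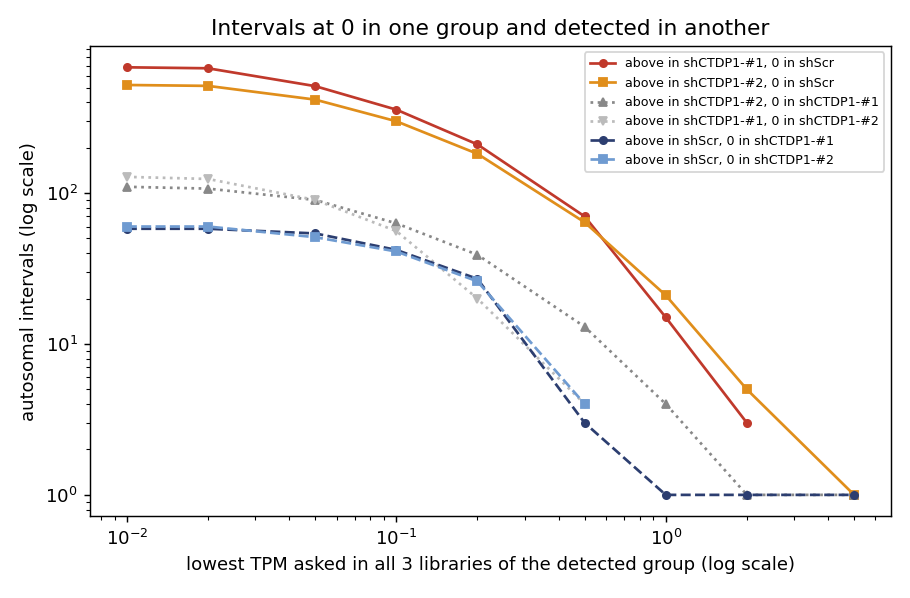
Number of autosomal intervals at 0 in all 3 libraries of one group (y axis, log scale) by the lowest TPM asked in all 3 libraries of another group (x axis, log scale); each line is an ordered pair of groups and points with a count of 0 are not drawn. At 0.1 TPM the lines of intervals silent with shScr stand at 357 and 299, those between the hairpins at 63 and 56, and those of the mirror sets at 42 and 41.

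The hairpins shared 276 members. These were 40.5% of the 681 members through shCTDP1-#1 and 53.1% of the 520 through shCTDP1-#2. A further 405 intervals were members through shCTDP1-#1 alone and 244 through shCTDP1-#2 alone. In the mirror set, 14 intervals were silent with both hairpins, 24.1% of the 58 and 23.3% of the 60. Both comparisons rest on the same 3 shScr libraries, so the overlap is a count and no independent evidence of agreement.

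Few of the members through a single hairpin were at 0 in the whole of the other one. Of the 405 through shCTDP1-#1 alone, 189 were above 0 in 2 of the 3 shCTDP1-#2 libraries, 147 in 1 and 69 in none. Of the 244 through shCTDP1-#2 alone, 119 were above 0 in 2 of the 3 shCTDP1-#1 libraries, 78 in 1 and 47 in none. Intervals listed at 0 in all 9 libraries numbered 23962, which is most of those silent with shScr.

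**Figure D2:**
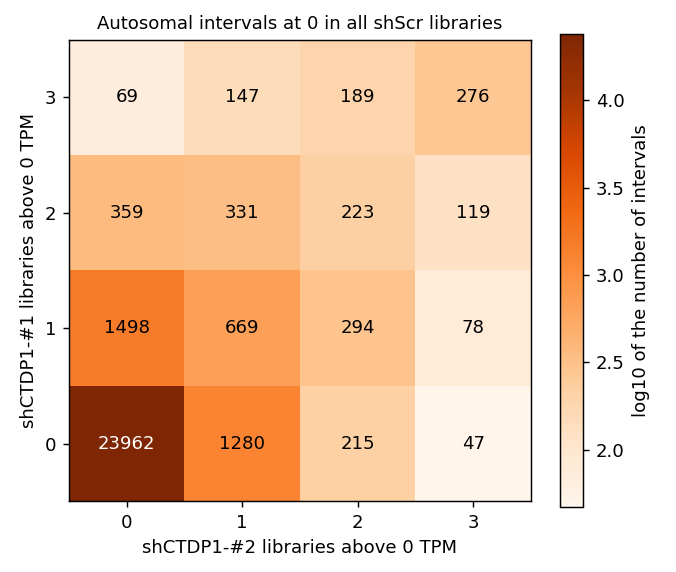
Autosomal intervals at 0 in all 3 shScr libraries, counted by how many shCTDP1-#1 libraries (y axis) and shCTDP1-#2 libraries (x axis) were above 0 TPM; the colour gives the log10 of the count printed in each cell. The top row and the right column hold the 925 members, and their shared corner the 276 detected in all 6 hairpin libraries.

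The members were transcripts of low level. The highest value of a member in any library had a median of 0.34 TPM and a middle range of 0.16 to 0.71 TPM. It reached 1 TPM in 161 of the 925 and 5 TPM in 4. The 276 members shared by the hairpins lay higher, with a median of 0.535 TPM for the highest library and 76 intervals at 1 TPM or more. Over the 405 members through shCTDP1-#1 alone that median was 0.26 TPM, and over the 244 through shCTDP1-#2 alone 0.33 TPM. The sets differ in how many libraries were above 0, and a maximum over more libraries tends to be higher. For the mean over the hairpin libraries that the rule required above 0, the medians were 0.303, 0.147 and 0.195 TPM in the same order. For the lowest of those libraries they were 0.11, 0.07 and 0.11 TPM. The 104 mirror intervals had a median of 0.38 TPM, beside 0.34 TPM for the members. For scale, intervals above 0 in all 9 libraries had a median of 19.05 TPM. The sum over the 276 shared members ran from 116.31 to 140.17 TPM in the shCTDP1-#1 libraries and from 109.24 to 125.03 TPM in the shCTDP1-#2 libraries.

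Among the shared members, the intervals below were ranked by their lowest value over the 6 hairpin libraries. All were listed at 0 in the 3 shScr libraries. The interval chr3:197836983-197838749, 1767 bases long, had 2.62, 4.59 and 2.94 TPM with shCTDP1-#1 and 1.76, 3.15 and 1.74 TPM with shCTDP1-#2. It came first in the ranking, and replicate 2 was the highest library of each hairpin. The interval chr14:55729485-55738793 had 2.32, 1.88 and 2.66 TPM with shCTDP1-#1 and 2.05, 1.86 and 1.59 TPM with shCTDP1-#2, the most even values of the leading 3. The interval chr5:172989481-173000202 had 1.78, 3.35 and 1.64 TPM with shCTDP1-#1 and 1.89, 3.03 and 1.39 TPM with shCTDP1-#2. Again replicate 2 was the highest of each hairpin, and the values of the hairpins overlapped.

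The next 3 in rank had lowest values between 1.04 and 1.23 TPM. The interval chr1:1510355-1511373 had 1.72, 1.23 and 2.19 TPM with shCTDP1-#1 and 1.73, 1.37 and 1.81 TPM with shCTDP1-#2. It lies 106 bases from an interval that was expressed with shScr, defined here as a mean of at least 1 TPM. The interval chr1:27986839-27989233 had 1.13, 2.37 and 1.05 TPM with shCTDP1-#1 and 1.20, 1.61 and 2.21 TPM with shCTDP1-#2. The interval chr3:57614537-57640645 had 1.13, 1.19 and 1.04 TPM with shCTDP1-#1 and 2.97, 1.20 and 1.63 TPM with shCTDP1-#2. It lies wholly inside an expressed interval, chr3:57611184-57678816, which averaged 10.4, 12.5 and 18.8 TPM with shCTDP1-#1, shCTDP1-#2 and shScr. That larger interval fell with both hairpins, by 0.79 and 0.55 on the log2(TPM + 1) scale (limma adjusted p = 7.35e-05 and 0.000923), and the inner one was detected in the hairpin libraries only, as the rule required. Reads of overlapping intervals cannot be told apart by strand in these libraries.

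In the remaining 6 the lowest value was under 1 TPM. The interval chr6:86369610-86370324 had 1.72, 0.90 and 2.07 TPM with shCTDP1-#1 and 2.03, 2.38 and 3.06 TPM with shCTDP1-#2, and an expressed interval lies 386 bases away. The interval chr10:3810107-3810943 ran from 1.74 to 7.61 TPM with shCTDP1-#1 and from 0.89 to 4.32 TPM with shCTDP1-#2, the widest range of the 12 that were ranked. A 47626-base interval of chromosome 8 had 2.82, 3.53 and 2.74 TPM with shCTDP1-#1 and 1.75, 0.84 and 1.73 TPM with shCTDP1-#2, without overlap between the hairpins. The last 3 were chr3:156881241-156886922, chr1:146986158-146989699 and chr16:281133-281471, with lowest values of 0.81, 0.71 and 0.67 TPM. Of the 12, 2 overlapped an expressed interval.

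**Figure D3:**
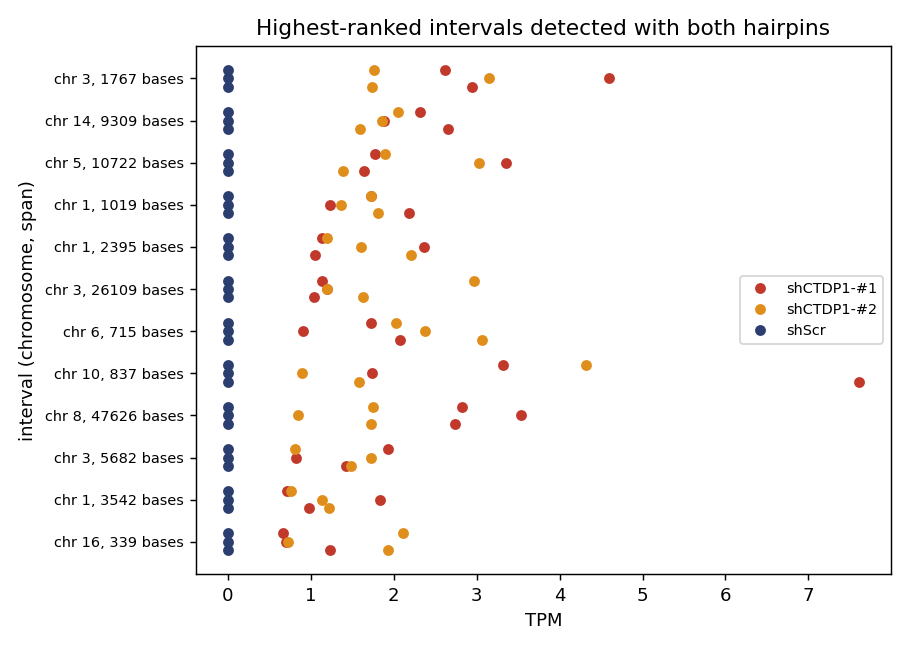
TPM in each of the 9 libraries (x axis) for the 12 shared members with the highest minimum over the hairpin libraries, named by chromosome and span (y axis); each point is 1 library, replicates 1 to 3 run from top to bottom within an interval. The shScr points all lie at 0, as the rule required, and the hairpin points lie between 0.67 and 7.61 TPM.

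The members through shCTDP1-#1 alone were led by chr6:51274879-51275335, a 457-base interval. It had 9.22, 2.52 and 4.22 TPM with shCTDP1-#1, 0.45, 1.09 and 0 TPM with shCTDP1-#2, and 0 in all shScr libraries. Its nearest expressed interval lies 853472 bases away. The interval chr10:5903768-5904557 had 2.09, 2.21 and 1.39 TPM with shCTDP1-#1 and 1.38, 1.20 and 0 TPM with shCTDP1-#2, so 1 library kept it out of the shared members. It lies inside chr10:5903580-5931869, which fell by 1.04 and 0.64 on the log2(TPM + 1) scale with the hairpins (limma adjusted p = 5.83e-05 and 0.00166). The interval chr2:20355379-20355818 had 1.52, 1.19 and 2.80 TPM with shCTDP1-#1 and 0.40, 0 and 0 TPM with shCTDP1-#2. The other two were chr19:9376066-9377015 and chr11:76493625-76494106, which averaged 1.51 ± 0.47 and 1.48 ± 0.81 TPM with shCTDP1-#1 (SD, n = 3). All 5 span under 1000 bases.

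The members through shCTDP1-#2 alone held the highest value of the set. The interval chr1:101360484-101360912, 429 bases long, had 10.17, 7.82 and 6.20 TPM with shCTDP1-#2 and 0 in all libraries of shCTDP1-#1 and shScr. It lies inside chr1:101337943-101361554, which averaged 39.1, 43.7 and 31.8 TPM with shCTDP1-#1, shCTDP1-#2 and shScr. That outer interval rose with both hairpins, by 0.29 and 0.45 on the log2(TPM + 1) scale (limma adjusted p = 0.00103 and 4.87e-05), whereas the inner one was detected with 1 of them. The interval chr9:70181520-70216621 had 2.93, 4.14 and 3.84 TPM with shCTDP1-#2, 0, 0 and 0.82 TPM with shCTDP1-#1, and 0 with shScr.

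Of the other leading members through shCTDP1-#2, chr19:52391278-52403716 had 3.53, 3.01 and 2.32 TPM with shCTDP1-#2 and 0, 0.25 and 0.23 TPM with shCTDP1-#1. It was within 1 library of being shared, at a far lower level in shCTDP1-#1. The interval chr11:82920441-82920676, at 236 bases the shortest member, had 1.68, 2.38 and 4.01 TPM with shCTDP1-#2 and 0 in all other libraries. It lies inside chr11:82904781-82971736, which averaged 13.9 TPM with shCTDP1-#1, 29.1 TPM with shCTDP1-#2 and 8.64 TPM with shScr. The outer interval rose by 0.66 and 1.67 on the log2(TPM + 1) scale with the hairpins (limma adjusted p = 0.00205 and 2.79e-06). The interval chr5:80538149-80538418 averaged 1.73 ± 0.61 TPM with shCTDP1-#2 and 0.46 ± 0.80 TPM with shCTDP1-#1 (SD, n = 3), where replicate 2 alone was above 0. Of these 5 intervals, 4 overlapped an expressed one.

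Whether the shared members differed between the hairpins is a question the rule did not settle, because it asked the same of all 6 hairpin libraries. Of the 276, 33 had at least 1 TPM in at least 3 libraries and entered the limma fit over 15011 intervals. Of these, 5 were higher and 2 lower with shCTDP1-#2 than with shCTDP1-#1 at an adjusted p under 0.05. Over all intervals tested, 50.2% were called in this comparison, 30.2% higher and 20% lower. Without shCTDP1-#2 replicate 2 the number called among the 33 was 11. The filter admits a member through its higher libraries, and 4 of the 7 passed it through 1 hairpin alone, so this count is no support for a difference. A fit over the 23174 intervals above 0 in at least 3 libraries takes in all 276 shared members. There 40 were called, 13 higher and 27 lower with shCTDP1-#2, so the balance of directions was the opposite, beside 19.7% higher and 13.5% lower over all intervals in that fit. The 7 intervals described next were picked through the first fit and its filter, so their directions do not stand for those of the 40. They were called in both fits, which read the same values, and their p-values are those of the fit with all 276. Both fits take the spread of an interval from all 9 libraries. The shScr values of a shared member are 0 by the rule and add no spread. The SEs and p-values of shared members can thus be too small, and the counts called too high.

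Log2 differences are given here on the log2(TPM + 1) scale, which understates those of low intervals, so their order is not that of TPM ratios. On that scale the largest difference between the hairpins among the 276 was in chr15:83328033-83378666. It had 0.51, 0.48 and 0.35 TPM with shCTDP1-#2 against 3.34, 1.92 and 2.06 TPM with shCTDP1-#1, a log2 difference of -1.23 (SE 0.16, limma adjusted p = 0.000318). All 3 libraries of shCTDP1-#2 lay below all 3 of shCTDP1-#1. The interval chr3:32071688-32072170 had 2.04, 2.04 and 2.19 TPM with shCTDP1-#2 against 0.32, 0.67 and 0.59 TPM with shCTDP1-#1, a log2 difference of 1.02 (SE 0.13, limma adjusted p = 0.000202). Here the groups were also apart, in the other direction. The interval chr17:6897961-6898508 had 4.78, 1.39 and 3.12 TPM with shCTDP1-#2 against 0.65, 0.68 and 0.60 TPM with shCTDP1-#1, a log2 difference of 1.23 (SE 0.27, limma adjusted p = 0.00608).

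In the other 4 of the 7 the difference on the log2(TPM + 1) scale was smaller. The interval chr4:185427614-185458708 had 1.10, 1.08 and 1.52 TPM with shCTDP1-#2 against 0.10, 0.53 and 0.19 TPM with shCTDP1-#1 (limma adjusted p = 0.00188). The interval chr11:61248592-61258403 had 2.77, 2.58 and 1.87 TPM with shCTDP1-#2 against 1.29, 0.21 and 0.81 TPM with shCTDP1-#1 (limma adjusted p = 0.00726). The libraries of the hairpins did not overlap in either. The chromosome 8 interval of 47626 bases was lower with shCTDP1-#2 by 0.74 on the log2(TPM + 1) scale (limma adjusted p = 0.00922). The interval chr1:110925441-110974982 had 1.74, 0.92 and 1.48 TPM with shCTDP1-#2 against 0.12, 1.07 and 0.35 TPM with shCTDP1-#1, where the values overlapped (limma adjusted p = 0.0413).

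The mirror set had lower leading values in its shared part. Of the 14 intervals silent with both hairpins, the first in rank was chr19:2330294-2330756, at 0 in all 6 hairpin libraries and at 0.42, 0.44 and 0.48 TPM with shScr. The second, chr22:24204375-24237410, had 0.45, 0.41 and 0.72 TPM with shScr. None of the 14 reached 1 TPM in any library, whereas 76 of the 276 shared members did. These counts are not like for like, because a shared member had 6 libraries above 0 and a shared mirror interval 3. The other leading intervals of this part were chr19:56218707-56219330, chr19:55987350-55987849 and chr2:113348373-113349516. They had 0.38 ± 0.06, 0.277 ± 0.021 and 0.253 ± 0.015 TPM with shScr (SD, n = 3). Of the 14, 6 had at least 0.2 TPM in all 3 shScr libraries. In 3 of these 6, the shScr values differed by the log2 ratios given above for 1 read, within a window of 0.2. The same held for 13 of 47 mirror intervals and for 4034 of 13891 intervals above 0 in all 9 libraries. Equal read counts would give such values, so a small SD here need not measure replicate spread. Whether the read counts were equal was not tested.

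Higher values occurred in the mirror set of a single hairpin. The interval chr4:89442724-89442940, 217 bases long, was at 0 in all shCTDP1-#1 libraries, at 0, 0 and 26.45 TPM with shCTDP1-#2, and at 19.91, 25.96 and 36.68 TPM with shScr. It is the only mirror interval that had at least 1 TPM in all 3 shScr libraries, and it lies inside an interval of chromosome 4 at 112, 131 and 120 TPM on average with shCTDP1-#1, shCTDP1-#2 and shScr. With shCTDP1-#2 the first in rank was chr16:85391069-85393055, which had 0 with shCTDP1-#2, 1.05, 1.10 and 0.96 TPM with shCTDP1-#1, and 0.88, 0.94 and 1.00 TPM with shScr. Next were chr19:7584802-7585346 and chr1:137682-137965, at 0 with shCTDP1-#2 and at 1.18 ± 0.86 and 2.61 ± 1.98 TPM with shScr (SD, n = 3). For shCTDP1-#1 the next in rank were chr19:50869137-50872588 and chr5:177377336-177390961, at 0 with shCTDP1-#1 and at 1.08 ± 0.46 and 1.59 ± 0.89 TPM with shScr (SD, n = 3).

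Members spanned more of the genome than the mirror intervals. The span, from the first to the last base with introns included, had a median of 11569 bases in the members and 1946.5 bases in the mirror set. It was 658 bases in intervals at 0 in all 9 libraries, 27664 bases in those above 0 in all 9, and 3405 bases over all autosomal intervals. Intervals under 1000 bases were 9.73% of the members, 29.8% of the mirror set and 59.8% of those at 0 in all 9 libraries. Members of over 100000 bases were 12.3%, and mirror intervals of that span 5.77%. Within the members, the shared ones had a median of 11025 bases, those through shCTDP1-#1 alone 13386 bases and those through shCTDP1-#2 alone 9076.5 bases.

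The longer an interval silent with shScr was, the more often it was detected with a hairpin. Of those of 300 to 1000 bases, 0.676% were detected in all 3 libraries of shCTDP1-#1 and 0.770% in all 3 of shCTDP1-#2. The shares were 3.96% and 2.89% from 3000 to 10000 bases, and 9.32% and 7.18% above 100000 bases. In the mirror direction, 0.212% and 0.256% of the intervals of 300 to 1000 bases that were silent with the hairpin were detected with shScr, and 0.648% and 0.299% of those above 100000 bases. Short members were listed at higher TPM: the highest value of a member had a median of 0.89 TPM from 300 to 1000 bases and of 0.28 TPM above 100000 bases. TPM divides reads by transcript length, so 1 read stands for more TPM in a short transcript. The part of this in the listed levels was not tested. The longest member, chr10:67672276-69455927 with 1783652 bases, had 0.03, 0.02 and 0.03 TPM with shCTDP1-#1 and 0, 0.11 and 0.01 TPM with shCTDP1-#2.

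**Figure D4:**
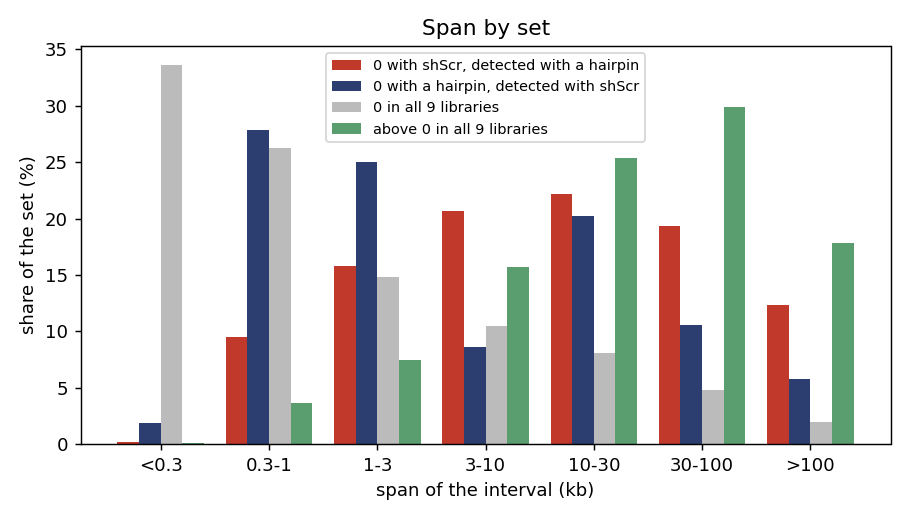
Share of each set (y axis, percent) by span of the interval (x axis, kb, introns included) for the members, the mirror set, intervals at 0 in all 9 libraries and intervals above 0 in all 9. The largest share of the members, 22.2%, spans 10000 to 30000 bases, and the largest share of the mirror set, 27.9%, spans 300 to 1000 bases.

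Members lay on all 22 autosomes. Chromosome 1 held 102, chromosome 19 held 76 and chromosome 17 held 64. As shares of the intervals silent with shScr on each chromosome, these were 3.73%, 6.27% and 4.73%, and the range over all autosomes was 1.64% on chromosome 21 to 6.27% on chromosome 19. Chromosomes 19 and 17 also had the highest share of intervals above 0 in all 9 libraries, 41.6% and 35.2%. The mirror set held 7 intervals on chromosome 19 and 2 on chromosome 17.

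Most members stood alone. Chained at gaps of up to 50 kb, 142 members fell into 66 runs of at least 2, and 7 runs held at least 3. The largest runs held 4 members each. On chromosome 13, from 57715052 to 57737787, 4 intervals of 3022 bases follow each other at steps of 6570 to 6573 bases. All 4 had the same values in every library, 0.85, 0.47 and 0.89 TPM with shCTDP1-#1, 0.32, 0.08 and 0.08 TPM with shCTDP1-#2, and 0 with shScr. Reads can be divided between near-identical copies, so these 4 members amount to 1 measurement and the level of each is uncertain. They stand as 4 members in all counts given here. Another pair of members on chromosome 8, of 2823 bases each, also shared all values.

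On chromosome 17, from 61949372 to 62009714, 4 members lay among 8 intervals, all 8 of which were silent with shScr. The interval chr17:61949372-61951126 had 0.61, 0.19 and 0.70 TPM with shCTDP1-#1 and 0.26, 0.17 and 0.22 TPM with shCTDP1-#2. The other 3, chr17:61972275-61974021, chr17:61986957-61996198 and chr17:62006100-62009714, were members through shCTDP1-#1 alone. None of these 3 was above 0 in more than 1 shCTDP1-#2 library. The third run lay on chromosome 8 within 50469 bases, with 2 shared members, 1 through shCTDP1-#1 alone and 1 through shCTDP1-#2 alone. All of its values were at or under 1.11 TPM.

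An expressed interval overlapped 185 of the 925 members, or 20%, and 51 of the 104 mirror intervals, or 49.0%. The share was 23.5% for intervals at 0 in all 9 libraries and 34.9% for those above 0 in all 9. Of the members, 9.08% lay wholly inside an expressed interval, against 28.8% of the mirror set. The spans of these sets differ, as given above, and the part of span in these shares was not tested.

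Of the 740 members without an overlap, 222 (30%) had one within 10 kb, with a median gap of 34264 bases. Of the intervals at 0 in all 9 libraries without an overlap, 10.0% had one within 10 kb and the median gap was 114735 bases. For intervals above 0 in all 9, these values were 47.8% and 11277 bases, and for the mirror set 32.1% and 28488 bases. In each class of span from 300 bases up, silent intervals near an expressed one had the highest share of members. From 300 to 1000 bases, 4.67% of the silent intervals with an expressed neighbour within 10 kb were members, against 2.36% of those overlapping an expressed interval and 0.374% of those farther away. From 10000 to 30000 bases the shares were 15.3%, 5.36% and 5.86%, and above 100000 bases 23.1%, 13.4% and 11.7%. Whether reads near a member belong to its neighbour cannot be told from these files.

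**Figure D5:**
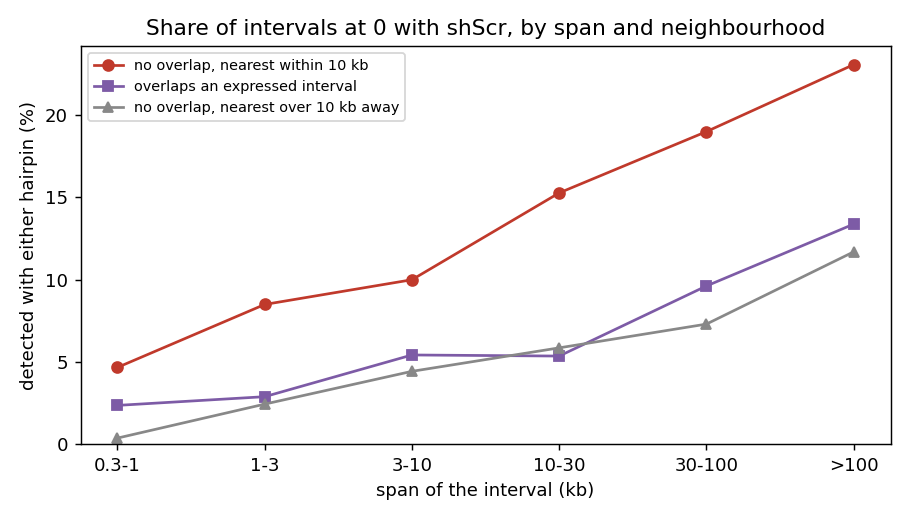
Share of intervals silent with shScr that were detected with either hairpin (y axis, percent) by span (x axis, kb), for intervals with an expressed interval within 10 kb and no overlap, with an overlap, and with none within 10 kb. Intervals near an expressed one have the highest share in each span class, from 4.67% to 23.1%.

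For each member with an overlap, the overlapping expressed interval with the highest shScr mean was itself tested, since the rule did not read its values. These partners were picked by that overlap and by their shScr mean, which also enters the tested change. Overlapping reads cannot be told apart by strand. Their change is thus not independent of the choice. For members through shCTDP1-#1, 124 such partners entered the limma fit. Of them 46 (37.1%) were higher and 38 (30.6%) lower with shCTDP1-#1 at an adjusted p under 0.05, while 35.4% and 27.7% of all 15011 tested intervals were. Among all expressed autosomal intervals the shares were 33.4% and 30.6%. For members through shCTDP1-#2, 48 of 104 partners (46.2%) were higher and 16 (15.4%) lower, beside 39.5% and 24.6% of all tested intervals and 37.6% and 27.2% of the expressed autosomal ones. Their median log2 change was 0.16 with shCTDP1-#2, against 0.08 over all expressed autosomal intervals. Both comparisons share the shScr libraries, and whether the partners differ from other intervals was not tested.

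At the border of the rule, membership turned on very small values. The lowest-placed members reached 0.02 TPM in their highest library, as 6 did, among them chr15:99697436-99701345 with 0.02 TPM in each shCTDP1-#1 library. The smallest value the files can show is 0.01 TPM, so a 0 can also stand for a lower positive value. Just outside the rule were 370 intervals with 1 shScr library above 0 and all 6 hairpin libraries above 0. The first of these, chr6:34231088-34231450, had 14.81, 10.74 and 15.19 TPM with shCTDP1-#1, 23.92, 22.45 and 19.71 TPM with shCTDP1-#2, and 0, 1.03 and 0 TPM with shScr. It stood above every member in level. Next came chr1:19536995-19567198, with 6.12, 6.25 and 6.82 TPM with shCTDP1-#1, 3.74, 4.63 and 4.53 TPM with shCTDP1-#2 and 0, 0.32 and 0 TPM with shScr. The third was chr12:49297201-49297596, which averaged 4.38 ± 1.27 TPM with shCTDP1-#1, 4.15 ± 1.33 TPM with shCTDP1-#2 and 0.42 ± 0.73 TPM with shScr (SD, n = 3). On the hairpin side, 38 intervals silent with shScr reached 5 TPM in some library, and 4 of them were members.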

How the data were processed

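RNA from 9 libraries of MDA-MB-231 cells was sequenced, 3 per hairpin. STAR, RSEM and hg19 are named per the submitters' processing notes; for versions and annotation, not given in the sources used here. Each deposited file holds 57773 intervals with a TPM value from the authors; the unit was read from the fixed total per library. Files were joined on coordinates. The 2246 rows that share an interval with another row, at most 0.391% of the TPM of a library, were left out, which left 55527 intervals, 50571 on chromosomes 1 to 22. The 37 mitochondrial intervals matched GENCODE v29 at both ends, so starts count from 1. No pair of files was identical.

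Members and mirror intervals were counted by the rule, with no test. Printed intervals were ranked by the lowest value in the detected group. An expressed interval had a mean of at least 1 TPM over the shScr libraries. The comparison of hairpins and the neighbours' changes come from limma 3.58.1 (R 4.3.3, trend and robust options) on log2(TPM + 1), in 1 fit of group means over all 9 libraries and the 15011 intervals that reached 1 TPM in 3 or more libraries, with Benjamini-Hochberg adjustment; p-values of shared members come from the same fit over intervals above 0 in 3 or more libraries, a choice made after seeing the data. The fit was tested on simulated data, with changes placed in intervals of higher level and with spread in all 9 libraries. That test does not bear on the p-values of shared members, whose shScr values are all 0. Fold changes on that scale understate those of low intervals, and no fold is given against a listed 0. The members, lists and rules were chosen with earlier results of these data known. No sequence is printed, since no hg19 genome was used here. Alternatives covered the definitions of silent and detected, the sequences kept, the pseudocount, filter, scaling, replicate block and each library left out.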

Additional observations from a re-analysis of the deposited data

Results flagged for a closer look

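In 7 of the 33 shared members tested, the level differed between the hairpins in a limma test of that difference. Over all 15011 intervals in that fit 50.2% were called, so such calls are not particular to the members. The filter of at least 1 TPM in at least 3 libraries favours members that differ: of the 7, those on chromosomes 15, 3, 17 and 4 passed it through 1 hairpin alone. All 7 were also called in the fit that took in all 276 shared members, with limma adjusted p from 0.000202 to 0.0413. That fit reads the same values of these 7, so it is no second support and does not undo the choice by the filter. In both fits the shScr values, 0 by the rule, add no spread, so these p-values can be too small. On the log2(TPM + 1) scale, shCTDP1-#2 minus shCTDP1-#1, the difference was -1.23 for the interval of 50634 bases on chromosome 15 and -0.74 for that of 47626 bases on chromosome 8. It was 1.02 for the interval of 483 bases on chromosome 3, 1.23 for that of 548 bases on chromosome 17 and 0.82 for that of 31095 bases on chromosome 4. It was 0.98 for the interval of 9812 bases on chromosome 11 and 0.69 for that of 49542 bases on chromosome 1. The level of CTDP1 was not analysed, and its part in these differences was not tested.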

How the results depend on the processing

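With detection at 0.1 TPM or more, the members were 357 for shCTDP1-#1, 299 for shCTDP1-#2, 150 for both and 506 for either, and the mirror set silent with both hairpins held 9. At 1 TPM or more the members were 15, 21, 6 and 30 in the same order, and the mirror counts were 1 for shCTDP1-#1, 0 for shCTDP1-#2, 0 for both and 1 for either. Silence at 0.01 TPM or less, rows that share an interval (matched by their order in each file, so uncertain) and the addition of other sequences each left all 8 counts within 1.5 times their value.

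Each library left out in turn gave 884 to 1070 members for shCTDP1-#1, 707 to 877 for shCTDP1-#2, 307 to 404 for both and 1130 to 1271 for either. The mirror counts were 98 to 146, 104 to 133, 17 to 47 and 136 to 230 in that order, since the rule then asks fewer libraries. Members that differed between the hairpins were 6 to 11 and all calls in that comparison 6750 to 6951. With all 276 shared members tested, 40 differed, 13 higher and 27 lower with shCTDP1-#2, and the cause of the turned balance was not tested. In that fit 33.2% of all 23174 intervals were called. A pseudocount of 0.1 and median-of-ratios scaling gave 6 and 7.

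Same-numbered libraries had residuals that correlated at -0.01 to 0.05 and other-numbered ones at -0.05 to 0.02, so the numbers were not taken to pair the libraries, although 8 of 9 correlated best with their own number. With the replicate block, 6 members and 7425 of all intervals differed between the hairpins. The counts by rule come from no test, so no paired form of them exists. The unknown depth limits how far a listed 0 can be read.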
